A study of Homo sapiens with 6 samples.

Results

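RNA recovered with an antibody against NAT10 (RIP) from cells labelled SW480 was compared, gene by gene, with the RNA of the Input library of the same label. A gene entered if its Input value was at least 1 FPKM (fragments per kilobase of gene, scaled to the depth of the library), which left 14712 of the 58302 genes in the table. The ratio of a gene is log2((RIP FPKM + 1)/(Input FPKM + 1)). A gene is called higher or lower in RIP when the ratio is at least 2-fold in that direction. At the edge of the Input filter, ZP3 entered at 1.0006 FPKM and AL117344.1 was left out at 0.9995 FPKM.

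SW480 and DLD-1 are established epithelial lines from human colorectal cancer (CRC). The study asked which transcripts NAT10 binds in CRC cells, and both lines were wild type and untreated. For each line there was 1 Input library of total RNA, 1 NAT10 RIP library and 1 library of RNA immunoprecipitated for N4-acetylcytidine (acRIP). With 1 library per group there was no replicate check, no test between RIP and Input was possible, and every value below describes these libraries. No precipitation with a control antibody was analysed here, so a high ratio does not by itself mean binding.

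NAT10 is the acetyltransferase that writes the RNA modification N4-acetylcytidine (ac4C). Its best known substrates are 18S ribosomal RNA in the nucleolus, to which the box C/D small nucleolar RNA SNORD13 (U13) guides it, and transfer RNAs, for which it uses the adaptor protein THUMPD1. It has also been linked to ac4C on messenger RNA.

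The FPKM columns held whole reads, and the depths they implied were 29628966 fragments in the RIP library and 14617145 in the Input labelled SW480, so the RIP library was 2.03 times as deep. The reads behind a value are printed where they limit it, and standard errors (SE) and the intervals of read ratios cover counting error only. Intervals of shares and medians are taken over genes, which are not replicates, and hold no error between libraries.

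Both libraries came from colorectal epithelial cells by their markers, but they did not carry the same line's markers. Of the 10 epithelial markers, 9 reached 1 FPKM in each library. VIM (vimentin, a mesenchymal filament protein that SW480 expresses) stood at 128 FPKM in RIP and 0.0770 FPKM in the Input labelled SW480. ZEB1, a repressor of the epithelial state, stood at 5.27 against 0.0764 FPKM, and KRT5, a keratin of stratified epithelium, at 93.4 against 0.270 FPKM. KRT20, a keratin of intestinal cells, went the other way, with 0 in RIP and 29.2 FPKM in Input. In the Input labelled DLD-1, VIM was at 11.1 FPKM, KRT5 at 114 FPKM and KRT20 at 0.0426 FPKM. As a description over 16196 coding genes on the log2 scale, the RIP library correlated at r = 0.871 with the Input of its own label and at r = 0.944 with that of the other label. The RIP and Input of 1 label thus did not show the markers of 1 line. A difference between lines and an effect of the precipitation cannot be told apart in ratios within the label, so values over the Input labelled DLD-1 stand beside them. A second table, of the acRIP experiment, gave 1 more Input column per line with the same split (VIM at 0.0881 FPKM under SW480 and 51.2 FPKM under DLD-1). The labels name 1 Input sample per line, so these 4 Input columns need not be 4 separate libraries. The 8 blood markers summed to 0.174 FPKM in RIP and 0.364 FPKM in Input, and none reached 1 FPKM. The 6 fibroblast markers summed to 1.98 and 1.11 FPKM, and the 4 endothelial markers to 0.157 and 0.629 FPKM. Of the 5 stratified epithelial markers, which summed to 97.9 and 1.43 FPKM, KRT14 was at 0 in both libraries.

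MicroRNA genes, read here as reads over their hairpin loci, lay mostly at the low end, and their mature sequences are shown because the position of a locus at either end is easiest to follow by its product. Of the 13152 genes of all classes with at least 20 reads in RIP or Input, 806 were lower and 709 higher over both Inputs of the RIP table. Of 105 microRNA genes, 22 had at least 20 reads in RIP or Input. In this group 13 genes lay at least 2-fold to the same side over both Inputs, 12 lower and 1 higher in RIP. However, 6 of the 22 were at 0 in RIP and passed through Input alone, which makes them lower by rule. Each low locus printed below passed the read filter through Input, and MIR3189 passed it through RIP. The split into lower and higher loci is thus partly set by the filter. RefSeq (GRCh38.p14) gave 13 mature sequences for 8 of these genes, printed 5′ to 3′ with the seed (bases 2 to 8) in capitals. No 2 of the 13 shared a seed. The library kit was made for long RNA, so the reads need not come from mature microRNA.
hsa-miR-4521: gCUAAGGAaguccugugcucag
hsa-miR-4265: cUGUGGGCucagcucuggg
hsa-miR-185-5p: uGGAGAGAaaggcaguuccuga
hsa-miR-185-3p: aGGGGCUGgcuuuccucugguc
hsa-miR-4449: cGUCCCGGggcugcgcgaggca
hsa-miR-25-3p: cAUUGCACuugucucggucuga
hsa-miR-25-5p: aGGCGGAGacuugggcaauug
hsa-miR-3619-5p: uCAGCAGGcaggcuggugcagc
hsa-miR-3619-3p: gGGACCAUccugccugcugugg
hsa-miR-616-3p: aGUCAUUGgaggguuugagcag
hsa-miR-616-5p: aCUCAAAAcccuucagugacuu
hsa-miR-3189-5p: uGCCCCAUcugugcccuggguagga
hsa-miR-3189-3p: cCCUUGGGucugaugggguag

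The highest of these loci was MIR3189, which had 59 reads over the locus in RIP and 5 in Input, a ratio of 2.31 (SE 0.67). Its products are miR-3189-5p (chr19:18386570-18386594) and miR-3189-3p (chr19:18386607-18386627), both on the plus strand. MIR3189 stood at 4.82 over the Input labelled DLD-1. Over the acRIP-table Inputs labelled SW480 and DLD-1 it stood at 4.82 and 0.57. MIR4521 (chr17:8186948-8186969 for the mature RNA, plus strand) had 0 reads in RIP and 37 in Input. At the limit of 3 reads in RIP this is at least 25-fold lower. MIR185 had 0 against 23 reads, at least 15.5-fold lower, and MIR4265 had 0 against 39 reads, at least 26.4-fold lower. MIR25, whose hairpin lies in an intron of the replication gene MCM7, had 1 read in RIP and 30 in Input. Per unit of depth its Input was 60.8 times the RIP level, with a counting interval of 10.1 to 2481. MIR4449 had 6 against 73 reads, a 24.7-fold excess of Input (10.8 to 69.4). The Input labelled DLD-1 gave ratios of -6.34 for MIR4521, -3.86 for MIR185, -1.32 for MIR4265, -2.36 for MIR25 and -5.07 for MIR4449, against -5.43, -4.34, -4.80, -4.18 and -4.24 over the Input labelled SW480. The intervals of the low loci are wide because few reads lie behind them.

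The ends of the distribution held different RNA classes, with mRNAs at the high end and small RNAs at the low end. In all, 1960 genes (13.3%) were higher and 3621 genes (24.6%) lower in RIP. With the Input labelled DLD-1 in its place, 9.47% of the same genes were higher and 9.84% lower. Of the 323 genes at least 4-fold higher, 297 were protein-coding (92.0%, 95% Wilson interval 88.5 to 94.4) and 5 were small RNAs. Of the 1119 genes at least 4-fold lower, 222 were protein-coding (19.8%, 17.6 to 22.3) and 372 belonged to the 7 small RNA classes (33.2%, 30.5 to 36.1). Among the 375 genes at least 8-fold lower, 199 were small RNAs (53.1%, 48.0 to 58.1). Of the 1119 genes 604 were at 0 in RIP, and of the 375 genes 210. These entered through Input alone, so the make-up and lengths of the low end are partly set by the Input filter. For comparison, 74.7% of all members were protein-coding and 4.30% were small RNAs. The median implied length was 2221 bases at least 4-fold above and 474 bases at least 4-fold below, against 2873.5 bases over all members.

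**Figure D1:**
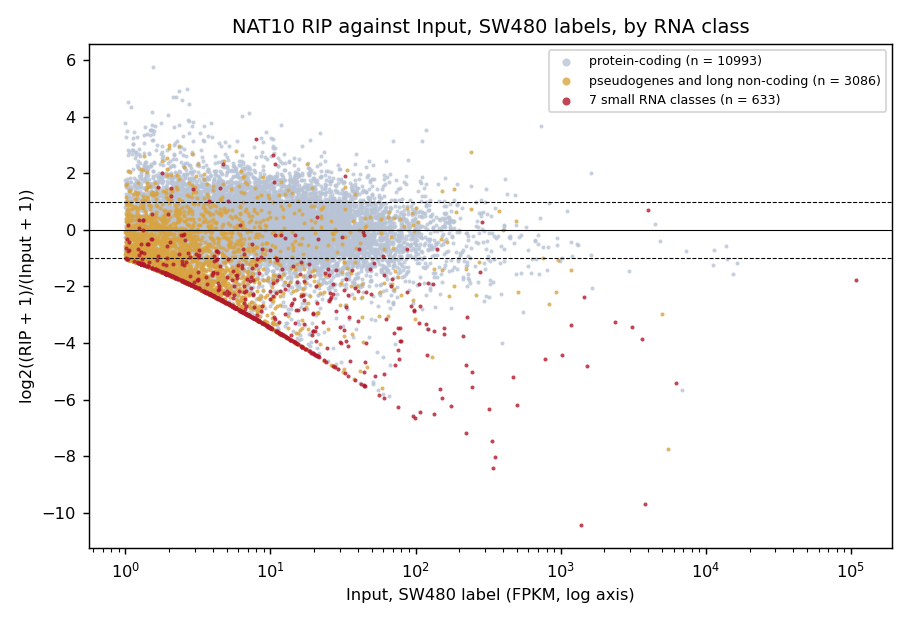
Ratio of RIP to Input on the log2 scale (vertical axis) against the Input FPKM (log axis) for the 14712 genes, coloured by RNA class, with dashed lines at 2-fold. The 633 small RNA genes lie mostly below the lower line, down to -10.43, and the lower curved edge is formed by genes with 0 in RIP.

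The composition of the libraries moved with this. The 7 small RNA classes (small nucleolar, Cajal body, spliceosomal and micro RNAs, miscellaneous small RNAs, mitochondrial tRNAs, and 5S and 5.8S rRNA copies) took 28.5% of the FPKM sum in Input and 10.6% in RIP, and protein-coding genes took 64.9% and 84.4%. FPKM values are shares of a library, so a lower share of one class and a higher share of the others cannot be told apart from these values alone. The ratios of all classes are relative to this balance.

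The Input filter itself bears on the low end. It asks nothing of RIP, so that 1456 members were listed at 0 in RIP, and 606 of these had a value in no other column of the RIP table, which leaves their reads unsolved. With membership set by the Input labelled SW480, the median ratio of the small RNAs was -2.31 over that Input and 0 over the Input labelled DLD-1. Class medians are therefore given below for genes with at least 20 reads in RIP or in Input. This filter kept 13152 genes, of which 1958 were higher and 2352 (17.9%) lower in RIP. Among them were 198 small RNAs with a median of -3.13 over the Input labelled SW480 and -2.28 over the Input labelled DLD-1. Of the 198, 40 were at 0 in RIP and passed through Input alone, which makes them lower by rule.

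Among the 66 small nucleolar RNAs (snoRNAs) with at least 20 reads, which guide modification or processing of ribosomal RNA, 60 were lower and 4 higher in RIP, with a median ratio of -3.30. With the Input labelled DLD-1 their median was -2.82, and 53 were at least 2-fold lower over each of the 4 Input columns. SNORA3B, an H/ACA snoRNA, held the largest difference among them, with 14 reads (3.61 FPKM) in RIP and 7294 reads (3809 FPKM) in Input, a ratio of -9.69 (SE 0.39). Its ratio was -8.67 over the Input labelled DLD-1. SNORD8, a box C/D snoRNA, had 5 reads in RIP and 246 in Input, a ratio of -5.93 (SE 0.65). Counted without a minimum of reads, and so with the lean of the Input filter, the 48 box C/D members had a median of -2.33 with 2 higher and 43 lower, and the 71 box H/ACA members a median of -2.69 with 1 higher and 59 lower. Over the Input labelled DLD-1 these medians were -1.90 and -2.26, with 1 higher and 31 lower and with 6 higher and 51 lower. The highest of each group rested on few Input reads: SNORD19 had 23 against 2 reads and SNORA38 had 30 against 4. The 10 Cajal body RNAs with at least 20 reads, which guide modification of spliceosomal RNA, had a median of -1.35 with 2 higher and 5 lower, and a median of -1.11 over the Input labelled DLD-1. SCARNA22 among them had 0 reads in RIP and 63 in Input, at least 42.6-fold lower. SCARNA13 lay at 2.32 with 467 against 43 reads, but it turned to -1.59 over the acRIP-table Input of the same label.

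The members on the list of NAT10's RNA partners were lower in RIP. All 4 were copies of the U3 snoRNA that takes part in 18S rRNA processing, with ratios from -3.94 (SNORD3C) to -2.31 (SNORD3B-2). The best covered copy, SNORD3A, had 2349 reads (113 FPKM) in RIP and 12036 reads (1178 FPKM) in Input, a ratio of -3.37 (SE 0.03). It lay at -3.31 over the Input labelled DLD-1. The copies are nearly identical, so that the split of reads between them is uncertain. SNORD3B-2 turned to 0.20 over the Input labelled DLD-1. SNORD13 was not a member, since the Input labelled SW480 listed it at 0. It had 71 reads (23.04 FPKM) in RIP, which is at least 11.7-fold above the limit of 3 Input reads, but both Inputs of the acRIP table held it, at 215 and 81.8 FPKM before scaling. SNORD13 was thus higher or lower in RIP depending on the Input column. NAT10 mRNA had 20.8 FPKM in RIP and 21.2 FPKM in Input, a ratio of -0.03, and THUMPD1 had 16.3 and 10.0 FPKM, a ratio of 0.65. KIF23, a kinesin of cytokinesis that the study followed as a NAT10 target, had 18.8 FPKM in RIP and 34.3 FPKM in Input. Its ratio was -0.84 (SE 0.05) and -0.06 over the Input labelled DLD-1. Over the acRIP-table Inputs labelled SW480 and DLD-1 the ratio was -0.54 and 0.23. The study's evidence that NAT10 binds KIF23 mRNA also included RIP followed by PCR against a control antibody (IgG). Such assays were not examined here.

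The spliceosomal, signal recognition and Y RNAs lay on the same side as the snoRNAs. Of 41 spliceosomal small nuclear RNA genes with at least 20 reads, 34 were lower and 2 higher, with a median of -2.57, which was -1.33 over the Input labelled DLD-1. RNU4-2, a U4 gene, had 251 FPKM in RIP and 3612 FPKM in Input, a ratio of -3.84. RNU6-5P, a U6 gene, had 3 against 530 reads, an Input excess of 358-fold (interval 122 to 1742), but its ratio of -7.45 over the RIP-table Input was -1.54 over the acRIP-table Input of the same label. RN7SL2, the RNA of the signal recognition particle, was the most abundant gene in Input, with 108171 FPKM against 31871 FPKM in RIP and a ratio of -1.76. Its near-copy RN7SL4P lay at -5.42, whereas RN7SL3 lay at 0.71 and at -0.71 over the Input labelled DLD-1, and reads of such copies can be split by the counting. RNY4, a Y RNA, had 0 reads in RIP and at least 240 in Input, at least 162-fold lower, and RNY1 had 179 against 2492 reads, a ratio of -4.79. VTRNA1-1, a vault RNA, had 4 against 252 reads, a ratio of -6.21. Of the 7 members on the list of such RNAs 6 were lower, all but RN7SL3.

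Copies of 5S and 5.8S rRNA lay low as well, with 8 of 8 genes lower and a median of -4.03. However, 7 of the 8 were at 0 in RIP and passed the read filter through Input alone, which makes them lower by rule. Over each of the 4 Inputs, 5 of the 8 were at least 2-fold lower. MIR3648-1 (chr21:8208473-8208652), which RefSeq places inside the 45S ribosomal RNA precursor gene RNA45SN2 (chr21:8205988-8219302), had 2 reads in RIP and 933 in Input, an Input excess of 946-fold per unit of depth (interval 261 to 7820). MIR3687-1, also annotated as a microRNA, had 1 against 198 reads, an excess of 401-fold (71.2 to 15931). Their ratios were -8.01 and -7.17, and with the Input labelled DLD-1 -8.92 and -8.46. MIR3648-1 lay at -4.49 and MIR3687-1 at -7.16 over the acRIP-table Input of the same label. AC090498.1, a short processed pseudogene, had 55 against 6038 reads, a ratio of -7.74, which was -4.57 over the acRIP-table Input of the same label. These loci were among the 10 lowest non-coding genes.

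**Figure D2:**
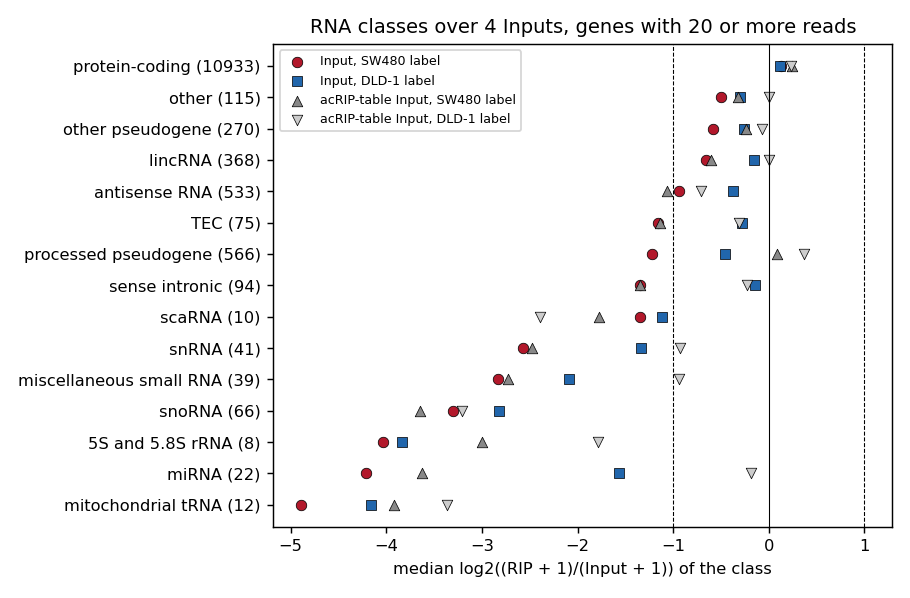
Median ratio of each RNA class on the log2 scale (horizontal axis) over 4 different Inputs, for genes with at least 20 reads in RIP or Input (number of genes beside each class), with dashed lines at 2-fold. The snoRNAs lie between -3.65 and -2.82 over all 4 Inputs, while the 22 microRNA genes spread from -4.21 to -0.18.

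Mitochondrially encoded RNAs split by type. Of the 12 mitochondrial tRNAs with at least 20 reads, 8 were lower and 3 higher in RIP. MT-TH had 0 reads in RIP and at least 465 in Input (1383 FPKM), at least 314-fold lower, the lowest ratio of all members at -10.43. MT-TV had 1 against 136 reads, an excess of Input of 276-fold (48.7 to 10968). MT-TG had 0 against 95, at least 64.2-fold lower. MT-TS2 had 0 against 86 reads, at least 58.1-fold lower. The 3 higher tRNAs were MT-TI with 168 against 8 reads (3.22, SE 0.52), MT-TT with 137 against 10 reads (2.64) and MT-TF with 77 against 11 reads (1.70). MT-TI turned to -1.07 over the acRIP-table Input of the same label. The 13 mitochondrial mRNAs, which encode respiratory chain subunits, had a median of -0.74, with 0 higher and 6 lower, and their median was -0.62 over the Input labelled DLD-1. MT-ND6, the mRNA that is transcribed from the light strand, stood apart with 137 FPKM in RIP and 6869 FPKM in Input, a ratio of -5.64 (SE 0.03). It lay between -6.31 and -5.22 over the 4 Inputs. MT-ND3 (0.94), MT-ND4L (0.66) and MT-ND5 (0.21) were the 3 members above 0. Of the 5 most abundant genes in Input, 4 were mitochondrial mRNAs, with ratios of -1.18 (MT-ND1), -1.55 (MT-ND2), -1.03 (MT-CO2) and -0.58 (MT-CO1). The mitochondrial rRNAs went apart, with MT-RNR1 (12S) at -1.002 and MT-RNR2 (16S) at 0.68.

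The longer non-coding classes lay between the small RNAs and the mRNAs over the Input labelled SW480. With at least 20 reads, the median was -1.22 for 566 processed pseudogenes, -0.94 for 533 antisense RNAs and -0.66 for 368 long intergenic RNAs. Of these, 100, 106 and 42 were at 0 in RIP and passed through Input alone, which makes them lower by rule. The order of the classes is thus partly set by the filter. The medians of the 3 classes were -0.46, -0.37 and -0.15 over the Input labelled DLD-1. Processed pseudogenes share sequence with their parent genes, and their median was 0.09 over the acRIP-table Input of the same label, so their direction depended on the table. Of the 17 nuclear long non-coding RNAs that were members, 4 were higher and 2 lower. MALAT1, a nuclear speckle RNA, had 437 FPKM in RIP and 1174 FPKM in Input, a ratio of -1.42, and it lay between -2.16 and -1.42 over the 4 Inputs. NEAT1, the scaffold of paraspeckles, stood at 0.72 with 54.4 and 32.6 FPKM. ZFAS1, a snoRNA host RNA, was the highest at 1.70, with 40.4 and 11.8 FPKM. HOTTIP, an RNA of the HOXA cluster, was the lowest at -3.29 and lay at -0.03 over the Input labelled DLD-1.

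The 5 highest non-coding genes were MT-TI, AC005332.9, HEIH, NAMPTP1 and AC078817.1. AC005332.9, a long intergenic RNA, had 23.1 FPKM in RIP and 1.99 FPKM in Input, a ratio of 3.01. HEIH stood at 2.96 with 25.1 and 2.36 FPKM, and 39.8% of its span lies under LINC00847 on the other strand. NAMPTP1, a pseudogene of the NAD synthesis gene NAMPT, stood at 2.88, and AC078817.1, another processed pseudogene, at 2.79. RPL41P1, a pseudogene of the ribosomal protein gene RPL41 that was singled out after its values were seen, held 1611 FPKM in RIP and 240 FPKM in Input, a ratio of 2.74. The parent gene RPL41 stood at 1.93 but at -2.46 over the acRIP-table Input of the same label.

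The 10993 protein-coding genes had a median ratio of 0.13 (95% interval by order statistics 0.10 to 0.15), with the middle part between -0.48 and 0.72. Of these, 1817 (16.5%) were higher and 1275 (11.6%) lower in RIP. At the edges of the call, GIT2 was just inside at 8.97 against 3.98 FPKM and TMEM139 just outside at 19.7 against 9.36 FPKM on the high side. On the low side SLC39A6 was just inside at 24.5 against 49.95 FPKM and NPIPB4 just outside at 1.19 against 3.38 FPKM. With the Input labelled DLD-1, 1142 of the same genes (10.4%) were higher and 407 (3.7%) lower. Genes past the call over both Inputs of the RIP table numbered 644 higher and 234 lower, and those past it over all 4 Inputs 337 and 100.

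The 10 highest protein-coding genes with at least 20 reads in both libraries were ARG2, SAA1, DBN1, CYP4F11, IL32, AXL, PLAU, FKBP10, PTPRS and S100A4. ARG2 (chr14:67619920-67651708), the mitochondrial arginase, had 115 FPKM in RIP and 2.68 FPKM in Input, a ratio of 4.98 (SE 0.16). SAA1, an acute phase apolipoprotein, had 98.2 and 2.33 FPKM, and IL32, a cytokine, had 83.3 and 2.48 FPKM. Of the others, AXL is a receptor kinase, PLAU the urokinase protease, DBN1 an actin binding protein, S100A4 a calcium binding protein, FKBP10 a collagen chaperone, CYP4F11 a cytochrome P450 and PTPRS a receptor phosphatase. AXL had 45.2 FPKM in RIP, 1.04 FPKM in the Input labelled SW480 and 52.5 FPKM in the Input labelled DLD-1. DBN1 had 83.1, 2.23 and 137 FPKM in the same order. The ratios of the 10 ran from 4.13 to 4.98 over the Input labelled SW480 and from -0.72 to 1.98 over the Input labelled DLD-1, where 3 of them, ARG2, SAA1 and PLAU, were still at least 2-fold higher.

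The 10 lowest protein-coding genes with at least 20 reads in both libraries were MUC5AC, MT-ND6, PARM1, EHF, OLR1, CRYBG1, IRS1, ERN2, EFNB2 and KIT. Genes with fewer RIP reads lay among them, such as KRT20, with 0 against 741 reads and a ratio of -4.92. MUC5AC, a secreted gel-forming mucin, had 0.130 FPKM in RIP and 65.5 FPKM in Input, a ratio of -5.88 (SE 0.18). EHF, a transcription factor of epithelial cells, had 1.45 and 66.2 FPKM, and ERN2, the stress sensor of mucus-secreting cells, had 0.209 and 20.95 FPKM. IRS1 is an adaptor of insulin signalling, EFNB2 an ephrin, KIT a receptor kinase and OLR1 a receptor for oxidised lipoprotein. In the Input labelled DLD-1, MUC5AC had 0.662 FPKM, EHF 2.05 FPKM, and ERN2 and KIT 0. The 9 nuclear genes of the 10 lay between -5.88 and -4.09 over the Input labelled SW480 and between -0.56 and 0.27 over the Input labelled DLD-1. MT-ND6 was the single gene of the 10 that stayed low, at -5.22.

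**Figure D3:**
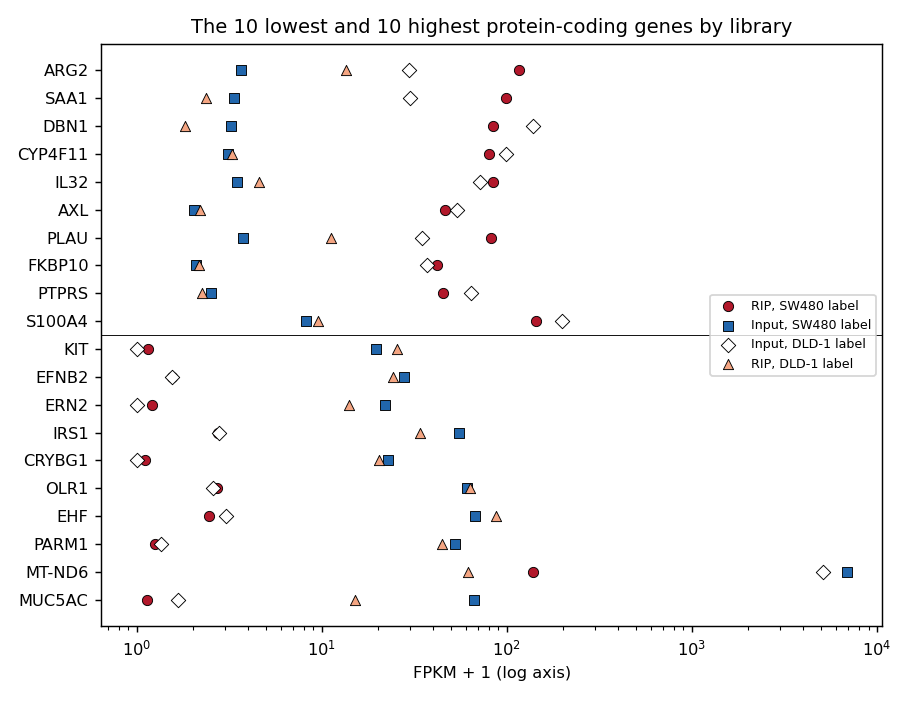
FPKM + 1 (log axis) of the 10 highest and the 10 lowest protein-coding genes in both RIP and both Input libraries of the RIP table. RIP of the SW480 label lies nearer to the Input labelled DLD-1 than to the Input of its own label, with MT-ND6 far below both at 137 FPKM.

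Abundant genes also lay at the high end. FTL, the ferritin light chain that stores iron, had 9340 FPKM in RIP and 730 FPKM in Input, a ratio of 3.68, with 5165 FPKM in the Input labelled DLD-1. LCN2, a siderophore binding protein, had 1377 and 118 FPKM, and SQSTM1, an autophagy receptor, had 978 and 111 FPKM. With the Input labelled DLD-1 the ratios of FTL, LCN2 and SQSTM1 were 0.85, -0.25 and 0.29. SNCG, a synuclein, had the highest ratio of all members, 5.76 with 3225 reads in RIP and 18 in Input, below the minimum of 20 reads. Its ratio over the Input labelled DLD-1 was 1.0006. FTL, LCN2, SQSTM1 and SNCG were chosen after their values were seen.

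At least 8-fold higher over both Inputs of the RIP table were 13 coding genes, named here after their values were seen. They were RPS23, ILK, TMA7, ATP5I, ZFPL1, PTRHD1, RHOF, TUBA1B, COX20, C8orf59, TPT1, CAMK1 and TMEM60. RPS23, a protein of the small ribosomal subunit, had 120 FPKM in RIP, 6.37 FPKM in the Input labelled SW480 and 5.50 FPKM in the Input labelled DLD-1. Its ratios were 4.04 and 4.22, but -0.23 over the acRIP-table Input of the same label. ILK, the integrin-linked kinase, had 48.8, 1.98 and 0.0357 FPKM, with 64.5% of its span under TAF10 on the other strand, and its ratio of 4.06 was 0.81 over that acRIP-table Input. ATP5I, a subunit of ATP synthase, went from 3.68 to 0.50, RHOF, a small GTPase of filopodia, from 3.29 to 0.05, and TUBA1B, an alpha-tubulin, from 3.18 to 0.59. TPT1, the translationally controlled tumour protein, had 630 FPKM in RIP and 70.4 FPKM in Input, and it went from 3.14 to 1.40. The Inputs of the acRIP table were counted with other gene lengths: 19.8% of the values came out as whole reads at the lengths of the RIP table.

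The 5 coding genes whose smallest ratio over the 4 Inputs was highest were TMEM60 (a membrane protein), PTRHD1 (of the peptidyl-tRNA hydrolase fold), C8orf59, CSNK2A3 (a casein kinase subunit gene) and NDUFA2 (a subunit of respiratory complex I). PTRHD1 had 843 reads in RIP and 25 in Input, and its 4 ratios ran from 2.97 to 3.77. C8orf59 had 862 against 37 reads, with ratios from 2.90 to 3.70. NDUFA2 had 671 against 54 reads and ratios from 2.38 to 4.07, and its whole span (100%) lies under TMCO6 on the other strand. CSNK2A3 ran from 2.51 to 3.79 and TMEM60 from 3.02 to 4.12.

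At the opposite end, the 5 coding genes with the lowest largest ratio were MT-ND6, BCAN, TMEM238, IL3RA and MXRA8. BCAN, a brain proteoglycan, had 1 read in RIP and 394 in Input, an excess of 799-fold (143 to 31624), with ratios from -3.34 to -3.08. TMEM238, a small membrane protein, had 58 against 311 reads, with ratios from -3.25 to -2.91. IL3RA, a cytokine receptor chain, had 20 against 318 reads, with ratios from -3.41 to -2.12, and 89.8% of its span lies under LOC101928032 on the other strand. MXRA8, a receptor of the immunoglobulin family, had 4 against 163 reads. In all, 11 coding genes were at least 4-fold lower over both RIP-table Inputs. Beside these 5 they were, named after their values were seen, NNAT, RBP5, BNIP3, LTC4S, PGAM4 and SPDYE6. BNIP3, a mitochondrial receptor of autophagy, had 0 reads in RIP and 56 in Input, at least 37.8-fold lower. PGAM4, a copy of a glycolytic mutase, turned to 0.91 over the acRIP-table Input of the same label.

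Within the coding class the median ratio differed little with length, while the share of higher genes fell. Over 10969 coding genes with a solved length, split into 10 groups of like size, the median ratio was 0.22 in the shortest group (104 to 1515 bases) and 0.04 in the longest (7412 to 30355 bases). The share of genes higher in RIP went from 24.9% in the shortest group to 10.0% in the longest, and the share of lower genes from 17.1% to 8.93%. Short genes thus spread to both sides, and the Spearman correlation across genes was -0.06. The medians were 0.21 and 0.03 over the Input labelled DLD-1, where the share of higher genes went from 21.8% in the shortest group to 2.73% in the longest. With the RefSeq gene span, introns included, in place of the solved length, the difference in median between shortest and longest group went from 0.18 to 0.0036. It was -0.44 over the acRIP-table Input of the same label when only genes of the same length in both tables were kept, so the direction depended on the length and table used.

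**Figure D4:**
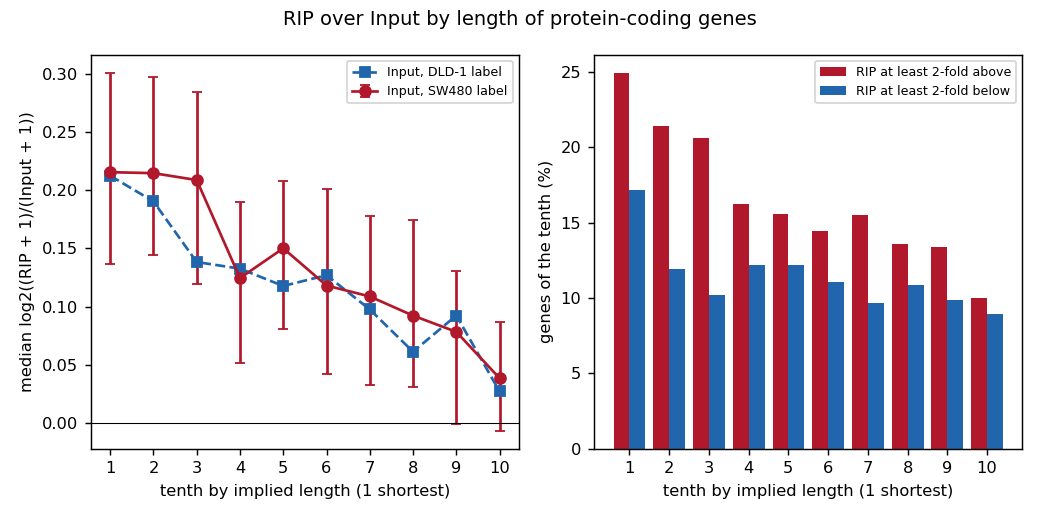
Left, median ratio on the log2 scale in 10 groups of protein-coding genes by implied length (bars, 95% interval of the median over genes by order statistics), over both Inputs of the RIP table. Right, percent of each group at least 2-fold higher or lower in RIP, which goes from 24.9% to 10.0% on the high side.

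Across all classes the lengths parted more clearly. Genes of at most 100 bases (172 genes, none coding) had a median ratio of -2.22, those over 100 to 200 bases -1.99, over 200 to 500 bases -1.35 and over 500 to 1000 bases -0.92. From 1000 to 2000 bases the median was 0.04 and 75.9% of genes were protein-coding. Length and class moved together, and their parts were not separated.

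Input level moved with the ends as well. The median Input of coding genes was 3.29 FPKM at least 4-fold above, 10.2 FPKM within 2-fold and 16.1 FPKM at least 4-fold below, and the Spearman correlation between Input and ratio across coding genes was -0.18. Input is the denominator of the ratio, so this relation is partly built in.

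The strand of the counting is not given in the sources used here. Genes that overlap a neighbour on the other strand were more frequent at the high end over the Input labelled SW480. Of 8991 coding genes with a strand in RefSeq (81.8%), at least 30% of the span lay under genes of the other strand in 6.91% (6.32 to 7.55) of genes within 2-fold. The share was 14.1% (35 of 248, 10.3 to 19.0) at least 4-fold above and 7.93% (13 of 164, 4.69 to 13.1) at least 4-fold below. At least 4-fold above over both Inputs it was 31.6% (12 of 38, 19.1 to 47.5), and at least 4-fold below over both 33.3% (3 of 9, 12.1 to 64.6). At 2-fold over both Inputs the shares were 13.5% (73 of 540) above and 14.1% (26 of 184) below, so the ends did not differ there. The part of such neighbours in the ratios was not tested.

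Genes with an ac4C peak in the acRIP library labelled SW480 were less frequent at the low end. Of coding genes within 2-fold, 50.2% (49.1 to 51.3) carried a peak, against 27.9% (62 of 222, 22.4 to 34.2) at least 4-fold below and 56.9% (169 of 297, 51.2 to 62.4) at least 4-fold above. The share was 62.7% among the 644 genes higher over both Inputs and 36.8% among the 234 lower over both. The Input column of that assay under SW480 lacked VIM, as given above, and the part of expression in the peak calls was not tested.

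The functions of coding genes were followed with fixed lists, each read by its counts beside the shares of all coding genes (16.5% higher, 11.6% lower). Over the Input labelled DLD-1 the shares of all coding genes were 10.4% and 3.7%. The list with the largest share of higher members was the glycolysis list, with 7 of 18 higher and 0 lower and a median of 0.45. GAPDH stood at 1.80, with 1433 FPKM in RIP and 411 FPKM in Input, and at 1.89 over the Input labelled DLD-1. ALDOC, an aldolase, was the highest at 3.33 but lay at 0.89 over the Input labelled DLD-1, and PFKL, the liver phosphofructokinase, was the lowest at -0.90. In all, 2 of the 18 were higher over the Input labelled DLD-1.

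Genes of the respiratory chain and of the mitochondrial ribosome leaned to the high side over each Input of the RIP table. Of 75 nuclear-encoded respiratory chain genes 24 were higher and 4 lower, with a median of 0.59, and over the Input labelled DLD-1 19 were higher and 4 lower, with a median of 0.41. COX4I1, a subunit of cytochrome oxidase, stood at -0.12 with 37.3 and 40.6 FPKM, so the lean did not extend to each member. COX7A1, the muscle form of another subunit, had 0 against 37 reads, at least 25-fold lower. Of 75 mitochondrial ribosomal protein genes 17 were higher and 0 lower, with a median of 0.39, and 14 and 2 over the Input labelled DLD-1. MRPS18C was the highest at 2.36 with 44.6% of its span under ABRAXAS1, and MRPS34 the lowest at -0.92. The median implied lengths of these lists, 1426 and 1706 bases, were under that of all coding genes, 3540 bases.

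Cytosolic ribosomal protein genes split evenly over the Input labelled SW480. Of 79 genes, 11 were higher and 11 lower, with a median of -0.04. The Input labelled DLD-1 gave 22 higher and 5 lower, with a median of 0.27. RPLP0, of the large subunit stalk, had 319 and 371 FPKM, a ratio of -0.22, and RPS28 was the lowest at -1.95, with 41.0% of its span under KANK3. These genes have many processed pseudogenes, and the split of reads between them is uncertain. The 63 translation initiation and elongation factors had 13 higher and 3 lower. EEF1A1, which brings tRNA to the ribosome, had 1131 and 484 FPKM, a ratio of 1.22, EIF1AX was the highest at 1.87 and EIF4A1, a helicase, the lowest at -1.64, which was 0.18 over the Input labelled DLD-1, where 11 of the 63 were higher and 1 lower. Of 39 aminoacyl-tRNA synthetases, which charge tRNA, 6 were higher and 0 lower, with WARS, for tryptophan, at 2.44 (264 and 47.9 FPKM) and at 0.11 over the Input labelled DLD-1, where 2 were higher and 0 lower. VARS, for valine, was the lowest at -0.63.

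The ribosome assembly list lay near the coding median of 0.13, and the proteasome and chaperone lists lay above it. The 61 snoRNP core and ribosome biogenesis genes, with which NAT10 works in the nucleolus, had 5 higher (8.20%) and 0 lower, and a median of 0.19. Over the Input labelled DLD-1 7 were higher and 0 lower, with a median of 0.22. FBL, the methyltransferase of box C/D snoRNPs, was among the higher at 1.43 (130 and 47.6 FPKM), and DDX51 was the lowest at -0.77. IMP3 was the highest at 2.87, with 37 reads in Input, and lay at 1.91 over the Input labelled DLD-1. Over the acRIP-table Inputs labelled SW480 and DLD-1 IMP3 lay at 0.80 and 0.045. The 35 proteasome subunits had 7 higher and 0 lower with a median of 0.45, and 9 and 0 with a median of 0.53 over the Input labelled DLD-1. They ran from PSMB1 at 1.87 to PSMD3 at -0.62, and PSMA1 stood at 0.74. Of 64 chaperones 18 were higher and 2 lower, with medians of 0.44 and 0.33 over the Inputs labelled SW480 and DLD-1. HSPA5, the main chaperone of the endoplasmic reticulum, stood at 1.61 with 593 and 193 FPKM, but at 0.10 over the Input labelled DLD-1, where 3 of the 64 were higher. DNAJB9 was the highest at 2.76 and HSPB1 the lowest at -1.53.

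Secretory, cholesterol and transporter lists held more higher than lower members, as did all coding genes over both Inputs. Of 68 secretory pathway genes 16 were higher and 2 lower, and 16 and 0 over the Input labelled DLD-1, with medians of 0.53 and 0.46. OST4, a subunit of the oligosaccharyltransferase, was the highest at 3.24 (90.4 and 8.66 FPKM) and SEC31B, a COPII coat gene, the lowest at -1.44. The 22 cholesterol genes had 7 higher and 0 lower with a median of 0.66, and 4 and 1 with a median of 0.19 over the Input labelled DLD-1, with MSMO1, a sterol oxidase, at 2.26 and SREBF2, the main transcription factor of the pathway, at -0.84. Among 197 solute carriers 45 were higher (22.8%) and 21 lower (10.7%). SLC2A1, the glucose transporter GLUT1, stood at 1.68, SLC6A8, the creatine transporter, at 3.06 and SLC44A4, a choline transporter family member, at -3.91. These were 0.46, -0.22 and -0.14 over the Input labelled DLD-1, where 24 solute carriers were higher and 5 lower.

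**Figure D5:**
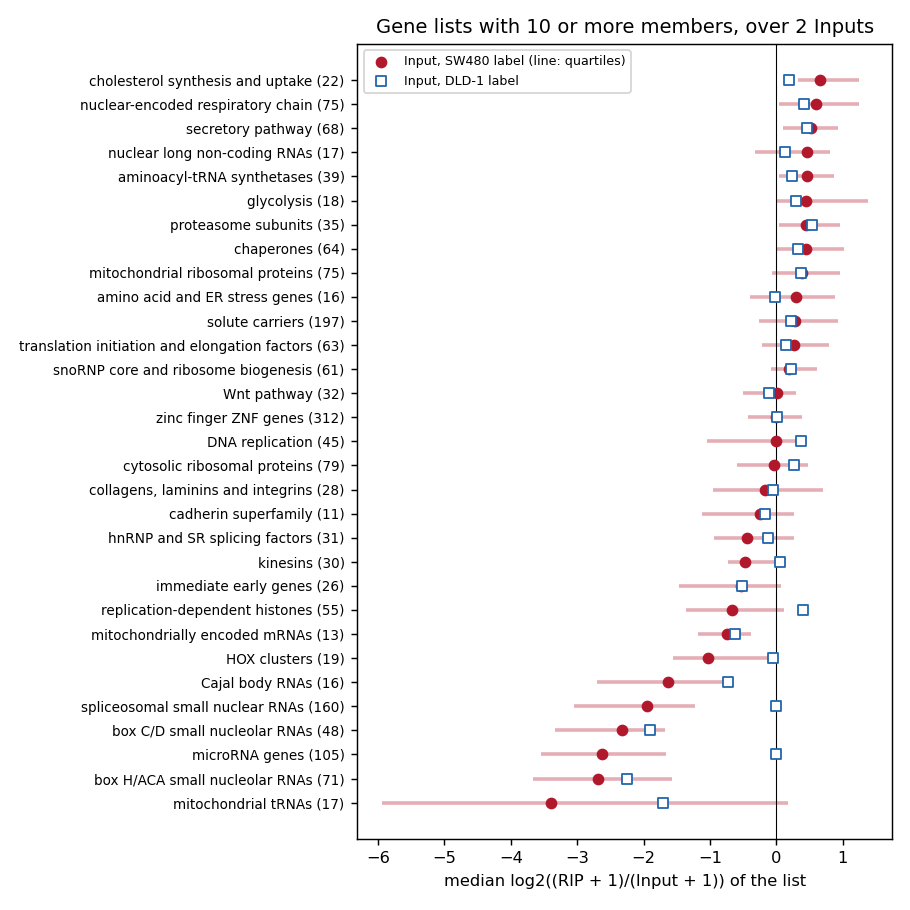
Median ratio on the log2 scale of the gene lists with at least 10 members over both Inputs of the RIP table, with a line from the lower to the upper quartile over the Input labelled SW480. The small RNA lists and the HOX genes lie at or below -1 over the Input labelled SW480. Over the Input labelled DLD-1 the spliceosomal RNAs and microRNA genes lie at 0, and the HOX genes and histones near or above 0.

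Immediate early genes, whose short-lived mRNAs are induced within minutes of a stimulus, lay below the coding median over both Inputs. Of 26 genes 1 was higher and 10 lower, and over the Input labelled DLD-1 1 was higher and 7 lower, with a median of -0.53 and -0.52. EGR1 had 86.4 FPKM in RIP, 328 FPKM in the Input labelled SW480 and 286 FPKM in the Input labelled DLD-1, with ratios of -1.91 and -1.72. FOS had 76.2, 229 and 233 FPKM, with ratios of -1.57 and -1.60, and JUN had ratios of -1.53 and -1.14. KLF2 was the lowest at -2.50 but lay at -0.33 over the Input labelled DLD-1, and CTGF, a matrix protein gene, the highest at 1.16 but at -1.15 over that Input. Of 16 genes of the amino acid and ER stress response 4 were higher and 1 lower, with DDIT3 at 2.14 and ATF4, its activator, at -1.04, and 1 and 0 over the Input labelled DLD-1, with DDIT3 at 0.75 and ATF4 at -0.61.

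Replication-dependent histone genes, whose mRNAs end in a stem-loop in place of a poly(A) tail, had 7 of 55 higher and 22 lower, with a median of -0.66. The Input labelled DLD-1 gave 14 higher and 5 lower, with a median of 0.41. HIST1H4C had 128 FPKM in RIP, 98.6 FPKM in the Input labelled SW480 and 19.2 FPKM in the Input labelled DLD-1. HIST1H2AE was the highest at 3.24 and turned to -1.31, and HIST1H2BH the lowest at -3.16 and turned to 0.84. The 45 DNA replication genes had 6 higher and 13 lower over the Input labelled SW480, and 4 and 1 over the Input labelled DLD-1. MCM2, of the replicative helicase, stood at -1.19 and -0.23 over the 2 Inputs. POLE4 was the highest at 2.14 and LIG1, a DNA ligase, the lowest at -2.01. The kinesins, motors of the spindle and of transport, had 0 of 30 higher and 5 lower, and 0 and 0 over the Input labelled DLD-1. KIF11 stood at -0.54, KIF26A was the highest at 0.83 and KIFC2 the lowest at -2.06.

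Genes of cell identity and adhesion often lay apart between the 2 Inputs. Of 19 HOX genes, which mark position along the body axis, 2 were higher and 10 lower with a median of -1.04, and 1 and 1 over the Input labelled DLD-1 with a median of -0.05. HOXA13 was the lowest at -2.72, HOXC10 the highest at 1.71, and HOXA9 stood at -0.49. Of 32 Wnt pathway genes 5 were higher and 5 lower, from NOTUM, a secreted Wnt inhibitor, at 2.75 to TCF7L2, the TCF4 transcription factor, at -1.97, and AXIN2, a feedback target, stood at -1.47. None of the 32 was past 2-fold over the Input labelled DLD-1, where AXIN2 stood at -0.11. Of 28 collagen, laminin and integrin genes 2 were higher and 5 lower, with COL9A3 at 3.51, ITGB1 at 0.88 and ITGB6, the epithelial integrin, at -1.58. The Input labelled DLD-1 gave 1 higher and 1 lower, with COL9A3 at 0.53, ITGB1 at 0.91 and ITGB6 at -0.02. Of 11 cadherin genes 1 was higher and 3 lower. CDH17, the liver-intestine cadherin, was the lowest at -3.49, with 2.54 FPKM in RIP, 38.7 FPKM in the Input labelled SW480 and 1.85 FPKM in the Input labelled DLD-1. CDH1, E-cadherin, stood at -0.25 and CELSR1 was the highest at 1.33, and these were 0.72 and -0.49 over the Input labelled DLD-1, where 1 cadherin was higher and 0 lower.

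Splicing factors had a smaller share of higher and a larger share of lower members than all coding genes, and zinc finger genes a smaller share of both. Of 31 hnRNP and SR splicing factors 1 was higher (3.23%) and 7 lower (22.6%), with a median of -0.44. The Input labelled DLD-1 gave 2 higher and 1 lower, with a median of -0.13. HNRNPH3, which the study listed as a possible target, was the highest at 1.14 (46.9 and 20.7 FPKM) and stood at 0.81 over the Input labelled DLD-1. SRSF7 was the lowest at -1.37, and SRSF1 stood at -0.01. Among 312 ZNF genes 17 were higher (5.45%) and 22 lower (7.05%), with a median of -0.01, and 16 and 11 over the Input labelled DLD-1. ZNF770 was the highest at 2.37 and lay at 1.58 over the Input labelled DLD-1, and ZNF711 was the lowest at -2.54 and lay at 0.25.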

How the data were processed

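RIP and Input libraries (1 each for 2 lines) were sequenced and processed by a service provider. The authors deposited FPKM values of 58302 Ensembl genes beside columns of RIP/Input ratio, which were not used. A second deposited table holds 2 Inputs of the acRIP experiment, read as FPKM, although its unit is not named. The ac4C peaks deposited by the authors carry a fold enrichment (ratio), which was not used. The submitters' processing notes name cutadapt 2.5, HISAT2 2.1.0 and GRCh38. The counting tool and its strand setting are not given in the sources used here.

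Groups were taken from the titles. Columns mapped to no sample numbered 0. Ratios were taken on the log2 scale of FPKM with a pseudocount of 1, where Input reached 1 FPKM. This scale understates the change of low genes. A call was a 2-fold difference, and no test was run, since each group held 1 library. Whole reads and gene lengths were solved from the steps between the 4 FPKM columns within 0.0002 reads (23514 of 23515 genes above 0 in at least 2 columns). They are the smallest whole numbers that fit, so reads and lengths are lower limits (MT-TH was solved at 23 bases). The solution and the ratio were tested on simulated data. SE and the exact 95% intervals of read ratios cover counting error only, and PCR copies are not independent molecules. The 95% intervals of shares (Wilson) and of medians (order statistics) treat genes as independent draws and hold no error between libraries. Inputs of the acRIP table were multiplied by 1.37 and 1.43, the median ratio over shared genes. Gene spans and sequences came from RefSeq, by symbol (13124 members matched).

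Named genes were the 10 highest and 10 lowest coding genes with at least 20 reads in both libraries, the 10 lowest and 5 highest other genes with at least 20 reads in either, the 5 coding genes most extreme over all 4 Inputs on each side, the extremes and an example of each of the 34 lists (an item is not reported here), NAT10 and its partners, and the 5 most abundant genes in Input. The genes, lists and tests were chosen with earlier results of these data known. Python 3.11.15, pandas 2.3.3, numpy 2.4.6, scipy 1.17.1 and matplotlib 3.10.9 were used. Alternatives tried were a pseudocount of 0.1, other filters, centring, and the other Inputs.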

Additional observations from a re-analysis of the deposited data

Results flagged for a closer look

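The 2 lines' labels gave opposite calls for many genes. Of the coding members, 414 were at least 2-fold higher in RIP with SW480 labels and at least 2-fold lower with DLD-1 labels, and 439 the other way round, beside a background of 16.5% higher and 11.6% lower with SW480 labels and 18.6% and 12% with DLD-1 labels. Both lines had 1 library per group, so that the difference between lines was not tested. VIM, KRT5 and KRT20 also went opposite ways with the 2 labels. In RIP labelled DLD-1 they stood at 0.804, 0.816 and 23.9 FPKM. The Input labelled DLD-1 held 11.1, 114 and 0.0426 FPKM. The part of this marker split in the opposite calls was not tested.

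Among the named genes and lists, 45 lay past 2-fold on opposite sides. The ratio with SW480 labels minus that with DLD-1 labels, on the log2 scale, was positive for DBN1 (10.96), SNCG (10.87), CYP4F11 (9.60), AXL (9.10), PTPRS (8.99), SAA1 (8.57), IL32 (8.56), S100A4 (8.50), FKBP10 (8.42), HIST1H2AE (7.86), LCN2 (7.04), COL9A3 (6.60), ARG2 (6.11), PLAU (6.08), NOTUM (6.05), SLC6A8 (5.91), ALDOC (5.85), SQSTM1 (5.45), FTL (5.24), CTGF (4.40), WARS (4.35), CELSR1 (3.77), HOXC10 (3.60) and HSPA5 (2.92). It was negative for PARM1 (-10.42), EHF (-9.62), OLR1 (-9.09), MUC5AC (-9.07), KIT (-8.77), CRYBG1 (-8.70), EFNB2 (-8.14), ERN2 (-7.99), HIST1H2BH (-7.96), SLC44A4 (-7.95), CDH17 (-7.95), IRS1 (-7.94), HOTTIP (-6.40), SNORD3B-2 (-5.83), HOXA13 (-5.75), ZNF711 (-5.70), KLF2 (-4.50), ITGB6 (-3.98), TCF7L2 (-3.16) and EIF4A1 (-2.71), and for the median of the HOX genes (-2.15). MT-ND6, SNORA3B and EGR1 were not among them.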

How the results depend on the processing

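No paired analysis was possible because each group held 1 library. Of 1589 values of 165 named genes under the alternatives, 1053 stayed within counting error, 476 moved by more than that without changing the sign of a called value, and 60 values of 38 genes changed sign. Settings that only filter genes cannot change a gene's own ratio. Their 120, 165, 124, 134 and 165 values thus stayed by rule and say nothing on stability. With the Input labelled DLD-1, 40 of 165 stayed, 103 moved and 22 changed sign. With the acRIP-table Input of the same label these were 50, 110 and 5. The counts of 1960 higher and 3621 lower genes and the coding median of 0.13 became 1013, 1661 and 0.050 with an Input of at least 5 FPKM. Without a filter on low values 3798 genes were higher. With at least 20 reads in both libraries 1281 genes were lower and the coding median was 0.16, and among coding genes alone 1275 were lower. Centring set the coding median to 0. With another Input, the genes were those that reached 1 FPKM in that Input, not the 14712 members. With the Input labelled DLD-1 1232 genes were higher and the coding median was 0.071. The coding median was 0.21 over the acRIP-table Input of the same label and 0.16 over its counterpart of the other line. After the data were seen, 2 settings were added: genes of the same length in both tables gave 175, 1337 and -0.23 over the acRIP-table Input of the same label, where fewer genes were left, and a mean of RIP and Input of at least 1 FPKM gave 3133 higher genes and a median of 0.24. The cause of the other moves was not tested.

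Signs turned without the filter for the medians of sense intronic (0.024) and antisense RNAs (0.076) and HOX genes (0.14). Over the acRIP-table Input of the same label they turned for RPL41 (-2.46), SCARNA13 (-1.59), MT-TI (-1.07), RPS23 (-0.23) and PGAM4 (0.91), with SCARNA13 (-1.59) and MT-TI (-1.07) also among genes of the same length. Over the Input labelled DLD-1 they turned for HIST1H2AE (-1.31), CTGF (-1.15), RNU5E-4P (-1.0008), DBN1 (-0.72), NOTUM (-0.70), PTPRS (-0.51), CELSR1 (-0.49), S100A4 (-0.47), CYP4F11 (-0.30), LCN2 (-0.25), SLC6A8 (-0.22), AXL (-0.21), HOXC10 (-0.12), OLR1 (0.065), CRYBG1 (0.13), EIF4A1 (0.18), SNORD3B-2 (0.20), KIT (0.20), ZNF711 (0.25), ERN2 (0.27), CDH17 (0.32) and HIST1H2BH (0.84). Over the acRIP-table Input labelled DLD-1 they turned for SCARNA13 (-1.87), RPL41 (-1.82), CTGF (-1.67), HIST1H2AE (-1.28), RNU5E-4P (-1.19), MT-TT (-0.88), MT-TF (-0.64), NOTUM (-0.59), HOXC10 (-0.54), HSPA5 (-0.31), S100A4 (-0.29), AXL (-0.29), DBN1 (-0.28), CELSR1 (-0.17), PTPRS (-0.11), OLR1 (0.015), LIG1 (0.017), IRS1 (0.030), EHF (0.054), EIF4A1 (0.12), CRYBG1 (0.13), MCM2 (0.14), SLC44A4 (0.16), CDH17 (0.16), KIT (0.20), HIST1H2BH (0.24), ZNF711 (0.25), ERN2 (0.27), KLF2 (0.29), HOTTIP (0.34) and MT-TM (0.56). The length comparison by union of exons and by longest transcript was not run.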
